A study of Mus musculus with 6 samples.

Results

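Potassium channel genes were examined in nuclear RNA of mouse neural precursor cells, as every gene row whose symbol is Kcn followed by letters and a closing number. The rule matched 92 of 23337 gene rows: 40 voltage-gated channel subunits, 15 inward rectifiers, 14 two-pore channels, 8 calcium-activated channels and their relatives, and 15 auxiliary subunits. Cells came from the dorsal forebrain of mouse embryos at stage E13.5 and were expanded on a coated surface in serum-free medium with EGF and basic FGF, each at 20 ng/ml, to passage 6-7. RNA was purified from isolated nuclei of cultures at about 80% confluency, and there were 3 lines labelled Fmr1 WT (lines 3, 8 and 19) and 3 labelled Fmr1 KO (lines 3, 13 and 16). Fmr1 encodes FMRP, an RNA-binding protein whose loss causes fragile X syndrome. The design text calls the lines of a genotype independent, so a p-value here measures the spread between lines in culture, and each library is a culture of dividing cells rather than a tissue. The labels give no further detail of the KO allele. Exons of 28 members overlap those of another annotated gene. Since the strand setting of the counting is not given in the sources used here, reads of such pairs cannot be told apart. Among these 28 are Kcnab2, Kcnab3, Kcnd3, Kcnj15 and Kcnma1, besides members whose overlap is named below.

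Potassium channels let potassium ions leave or enter a cell and so hold its resting potential and end its electrical impulses. Voltage-gated channels open on depolarization, inward rectifiers and two-pore channels carry current near rest, and calcium-activated channels open when intracellular calcium rises. Auxiliary subunits have no pore of their own and change where and how fast the channels open. In neural precursors and glia these channels are known mostly for the negative resting potential and for clearing extracellular potassium, and several of them have been tied to FMRP through their mRNA or their protein.

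Total counts ran from 18702738 to 26789522 per library. Levels are in CPM, a gene's count scaled by the depth of its library, and a single count equalled 0.0373 to 0.0535 CPM. The targeted gene did not follow the label in every library: Fmr1 was at 223, 270 and 274 CPM in WT lines 3, 8 and 19, at 188 and 153 CPM in KO lines 13 and 16, and at 371 CPM in KO line 3. Its log2 fold change was -0.10 (SE 0.29, edgeR quasi-likelihood test, adjusted p = 0.795), so the groups are called libraries labelled WT and libraries labelled KO below. WT line 19 and KO line 3 also stood apart from the other lines of their label: the chi-square of their counts, divided by its degrees of freedom, was 64.8 to 66.5 and 76.8 to 96.8, against 11.3 for the remaining WT pair and 17.3 for the remaining KO pair. Xist, the RNA of the inactive X chromosome, was at 15800 to 19700 CPM in WT lines 3 and 8 and KO line 3 and at 1.69 to 80.6 CPM in the other libraries. The precursor markers Nes and Vim were abundant in every library, Nes at 1790 to 2870 CPM and Vim at 2530 to 2590 CPM in WT and 1500 to 2110 CPM in KO. Microglial and endothelial markers were each under 1 CPM in every library, and the microglial gene Tmem119 had no counts.

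The libraries labelled KO held more RNA of many voltage-gated channels and less of 4 inward rectifiers, while the sums over all members overlapped between the groups. Kcnc4, Kcna1, Kcnd2 and Kcna3 were higher by 4.52- to 17.3-fold, and Kcnj10, the potassium channel of glia, was 11.3-fold lower. Of the 92 members, 55 had enough counts to be tested: 18 were higher in the libraries labelled KO (32.7% of those tested, against 21.8% of all 13925 tested genes), 11 were lower (20.0%, against 20.4%) and 26 were not called. In all, 52.7% of the tested members and 42.3% of all tested genes were called at an adjusted p under 0.05. The groups did not overlap for 34 tested members, where 54.3% of all tested genes did not overlap. For 5 members, Kcna4, Kcnn4, Kcnj15 and Kcnk9 among them, the filter's minimum of about 0.469 CPM was met in 1 group only, so they had to differ to be tested. The median log2 fold change was 0.00 over the tested members and 0.01 over all tested genes. Leaving out both WT line 19 and KO line 3 gave 18 members higher and 13 lower, of which 17 and 11 were among those called with all 6 libraries.

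**Figure D1:**
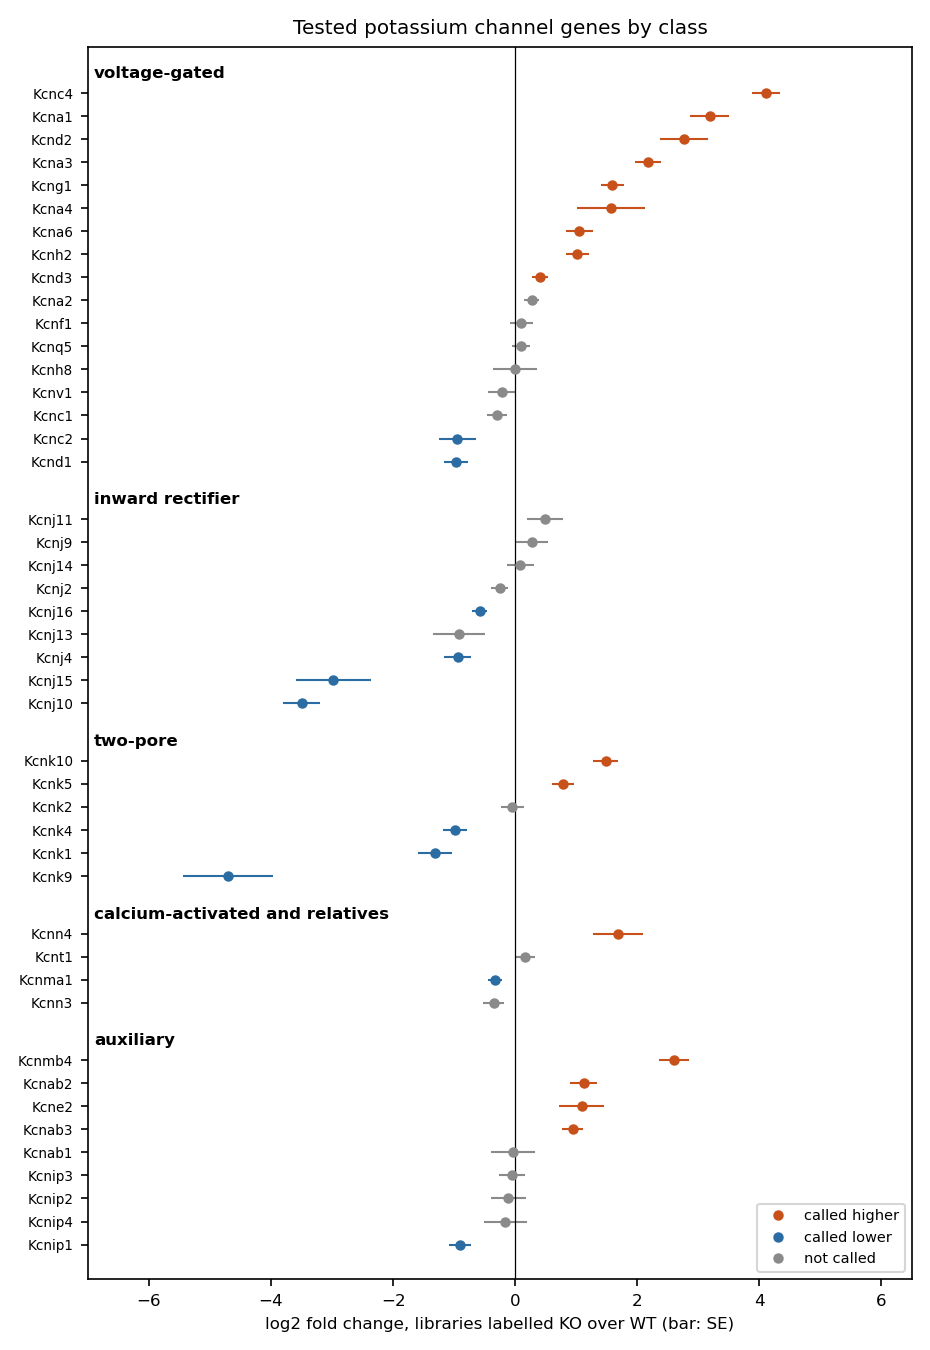
Log2 fold change of 45 tested members named in the text, KO label over WT label (horizontal axis; bar, SE; 3 libraries a group), by class and ordered by size. Kcnc4 reaches 4.11 to the right, 4 inward rectifiers are called lower and none higher, and colours give the call at an adjusted p of 0.05.

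A few members made up most of the potassium channel RNA: the top 3 in each library held 78.8 to 80.4% of the members' summed CPM in WT and 84.8 to 85.9% in KO. By level per length of exon the order was as follows. Kcna2, a voltage-gated channel of axons, led at a mean of 172 CPM per kilobase over the 6 libraries, above 99.5% of all tested genes, and Kcnc1, a fast-closing channel of rapidly firing neurons, followed at 121 CPM per kilobase. Kcnj10 came next at 55 CPM per kilobase, with 101 in the libraries labelled WT and 8.93 in those labelled KO, and Kcnd3, a channel of the transient A-type current, stood at 46.8 CPM per kilobase. Kcnj16 was at 17.3 CPM per kilobase. Only 13 members reached 10 CPM in every library, and 37 members were too low to test, with at most 0.76 CPM in any library. Kcnj1 and Kcns2 had no count at all. Summed over the 92 members, the level was 4280 to 4920 CPM in the libraries labelled WT and 4190 to 4720 CPM in those labelled KO, so the groups overlapped. The voltage-gated genes summed to 3580 to 3850 CPM in WT and 3870 to 4360 CPM in KO, and the inward rectifiers to 474 to 821 against 110 to 127 CPM. Single genes weighed heavily in these class sums. Kcna2, which was not called, had means of 1860 CPM in WT and 2240 CPM in KO, and Kcnj10 had means of 546 and 48.3 CPM.

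**Figure D2:**
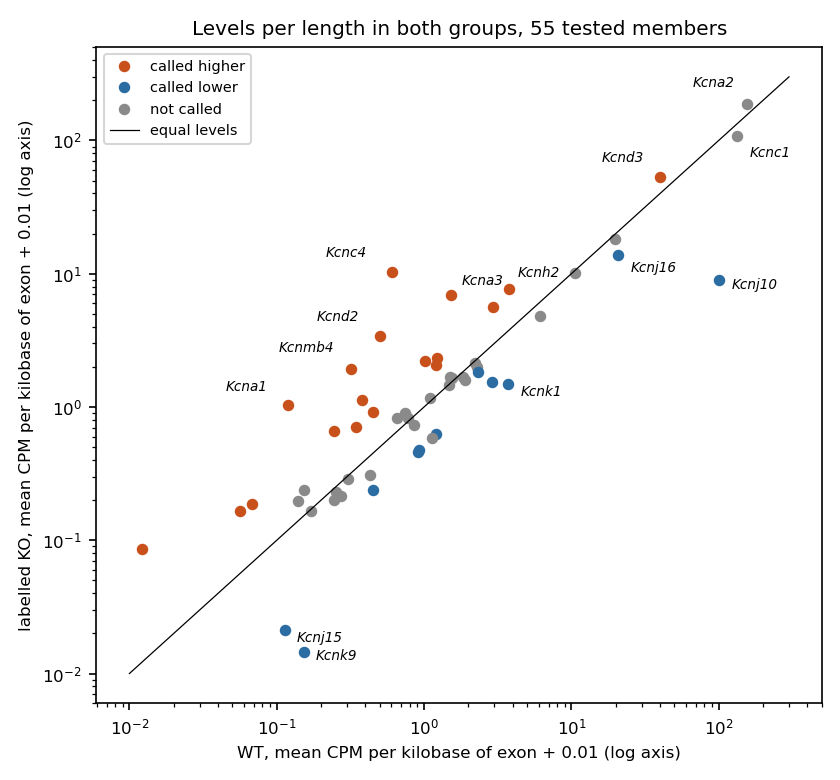
Mean level per kilobase of exon in libraries labelled WT (horizontal, log axis) and labelled KO (vertical, log axis) for the 55 tested members, with 0.01 added so that low values can be drawn. Kcna2, Kcnc1 and Kcnd3 lie near the line of equal levels at the upper right, Kcnj10 lies far below it and Kcnc4 far above it.

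The stretches just upstream of the start of transcription are shown for the called members with the largest fold changes in each direction, among those with 1 annotated start, at least 1 CPM in the higher group and no annotated exon in the stretch. They are the last 150 bases before the RefSeq start on build GRCm38.p6, written 5′ to 3′ on the gene's strand, and capitals mark the GC box GGGCGG or its reverse complement CCGCCC. Kcnd2 (chr6:21215196-21215345, plus strand) and Kcna3 (chr3:107036012-107036161, plus strand) were higher in the libraries labelled KO. Kcnj10 (chr1:172341060-172341209, plus strand) and Kcnk1 (chr8:125994952-125995101, plus strand) were lower.
Kcnd2: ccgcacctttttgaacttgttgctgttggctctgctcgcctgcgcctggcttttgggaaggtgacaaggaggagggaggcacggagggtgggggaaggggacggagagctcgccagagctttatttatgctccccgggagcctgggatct
Kcna3: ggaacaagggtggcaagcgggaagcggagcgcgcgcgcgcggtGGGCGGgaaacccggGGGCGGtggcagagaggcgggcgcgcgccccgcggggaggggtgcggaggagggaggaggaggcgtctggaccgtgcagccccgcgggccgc
Kcnj10: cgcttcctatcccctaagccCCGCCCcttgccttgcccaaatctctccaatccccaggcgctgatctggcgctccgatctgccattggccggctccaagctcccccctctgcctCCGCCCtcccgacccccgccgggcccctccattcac
Kcnk1: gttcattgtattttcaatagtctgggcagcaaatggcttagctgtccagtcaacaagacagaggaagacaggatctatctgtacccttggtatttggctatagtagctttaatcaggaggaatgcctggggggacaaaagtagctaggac
The stretches hold 7, 23, 10 and 0 CpG dinucleotides in that order. Kcna3 and Kcnj10 each show the box, Kcnk1 has none in the full 250 bases before its start, and that of Kcnd2 lies upstream of the bases shown. Promoter windows were found for 67 of the 92 members, with 92 starts in all. A GC box on either strand stood in the 250 bases before the start in 41 of these 92 windows (44.6%), against 32.7% of 32851 windows over the whole table. It was found in 11 of 17 windows of members called higher, 7 of 17 of members called lower, 9 of 28 of those not called and 14 of 30 of those not tested. A TATA box (TATAAA, either strand) was found in 3 member windows (3.26%), against 12.4% of all windows. The median number of CpG dinucleotides was 14 in windows of members called higher, 4 in those called lower and 6 in all windows. These matches describe letters only, and windows of genes with several starts are counted once per start.

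Among the voltage-gated channels, 11 of 22 tested members were higher in the libraries labelled KO (50.0%, against 21.8% of all tested genes) and 2 were lower (9.09%, against 20.4%), with a median log2 fold change of 0.36. Kcnc4 (ENSMUSG00000027895.9, chromosome 3, 107438303 to 107459552 in GRCm38), a fast-inactivating relative of Kcnc1, was at 2.01, 3.14 and 1.41 CPM in WT lines 3, 8 and 19 and at 36.0, 38.5 and 39.1 CPM in KO lines 3, 13 and 16, the order used below. Every library labelled KO was far above every WT library, with means of 2.19 ± 0.879 and 37.9 ± 1.63 CPM (SD, n = 3 each). Its log2 fold change was 4.11 (SE 0.23, edgeR quasi-likelihood test, adjusted p = 1.55e-05), the smallest p among the members. Its relatives Kcnc1 and Kcnc2 did not follow it. Kcnc1 was at 1180, 1170 and 1430 CPM in WT and 791, 1180 and 1090 CPM in KO, overlapping groups with a log2 fold change of -0.30 (adjusted p = 0.174). Kcnc2 was lower, at 3.33, 2.63 and 3.42 against 2.03, 1.95 and 0.901 CPM (-0.95, adjusted p = 0.0328). The call of Kcnc2 was lost without WT line 3, WT line 19 or KO line 16, with log2 fold changes of -0.91, -0.89 and -0.64.

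Of the Kcna genes, which encode the Shaker-related channels, 4 of 5 tested were higher, against 21.8% of all tested genes. The exception, Kcna2, was the most abundant of them per length. Kcna1 was at 0.658, 0.253 and 0.651 CPM in WT and 3.9, 5.75 and 4.94 CPM in KO, or 3.19 on the log2 scale (SE 0.32, edgeR adjusted p = 0.000138). Kcna3, a channel also known from dividing immune and glial cells, was at 3.29, 3.19 and 2.17 against 11.5, 16 and 11.9 CPM, a log2 fold change of 2.18 (SE 0.21, adjusted p = 0.000116). In both genes the lowest library labelled KO was more than 3 times the highest WT library. Kcna6 was at 2.67, 1.87 and 3.31 against 5.45, 5.03 and 5.79 CPM (1.05), and its exons overlap an antisense transcript, Gm26673, from which its reads cannot be told apart. Kcna4 was at 0.256, 0.152 and 0.434 against 1.5, 0.55 and 0.515 CPM, only just past the threshold (log2 fold change 1.57, adjusted p = 0.0498). The call was lost without any 1 of WT lines 3, 8 and 19 and KO lines 3 and 13, where the log2 fold change was 0.94 to 1.94 and the adjusted p 0.0506 to 0.15. Kcna4 met the filter's minimum only in the libraries labelled KO, so it had to differ to be tested. Kcna2 was at 1950, 1830 and 1800 CPM in WT and 2170, 2390 and 2160 CPM in KO. Its groups did not overlap, but the log2 fold change of 0.27 (SE 0.12) was not called (adjusted p = 0.108).

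Kcna genes lie in clusters, and neighbours differed. Kcna3, Kcna2 and Kcna10 follow each other on chromosome 3 between 107036169 and 107195721, with mean levels in WT of 2.88, 1860 and 0.106 CPM. Of these only Kcna3 was called, and Kcna10 was too low to test. On chromosome 6, Kcna1 and Kcna6 were both called higher, and Kcna5 beside them had 1 count in the WT libraries and 6 in the libraries labelled KO.

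The Kcnd genes encode the Kv4 channels of the A-type current, which delays firing. Kcnd2 (ENSMUSG00000060882.5, chromosome 6, 21215503 to 21729805), whose mRNA is a known FMRP target, was at 3.07, 3.14 and 1.36 CPM in WT and 27.1, 13 and 12.5 CPM in KO. The groups did not overlap, and KO line 3 was above the other lines of its label. The log2 fold change was 2.77 (SE 0.39, edgeR adjusted p = 0.000688), and 2.04 without both WT line 19 and KO line 3. Kcnd3, at a mean of 46.8 CPM per kilobase against 1.95 for Kcnd2, was at 385, 373 and 399 against 609, 492 and 433 CPM, again highest in KO line 3 (0.41, adjusted p = 0.0374). Its call was lost without any 1 of WT lines 3, 8 and 19 and KO line 13, with log2 fold changes of 0.38 to 0.44 and adjusted p of 0.0756 to 0.112. Kcnd1, on the X chromosome, went the other way, at 3.99, 5.42 and 5.15 against 2.35, 2.54 and 2.49 CPM (-0.97, adjusted p = 0.00384).

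The remaining voltage-gated members that were called were all higher. Kcng1, a subunit with no current of its own that modifies other channels, was at 1.79, 1.72 and 1.46 against 5.34, 5.29 and 4.51 CPM (1.59, edgeR adjusted p = 0.000311). Kcnh2, the ERG channel best known from the heart, was at 16.6, 17.1 and 21 against 27.1, 39.4 and 44.1 CPM (1.02, adjusted p = 0.00272). Neither gene had groups that overlapped. Kcnq3, a subunit of the M-current that steadies neurons, had 15 counts over the WT libraries and 37 over those labelled KO and was not tested, and Kcnq5 was not called. Kcnh8, not called with all 6 libraries (0.00), was called higher without WT line 19, where it was at 11.4 CPM against 3.77 to 7.48 CPM elsewhere (0.63, adjusted p = 0.0488).

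**Figure D3:**
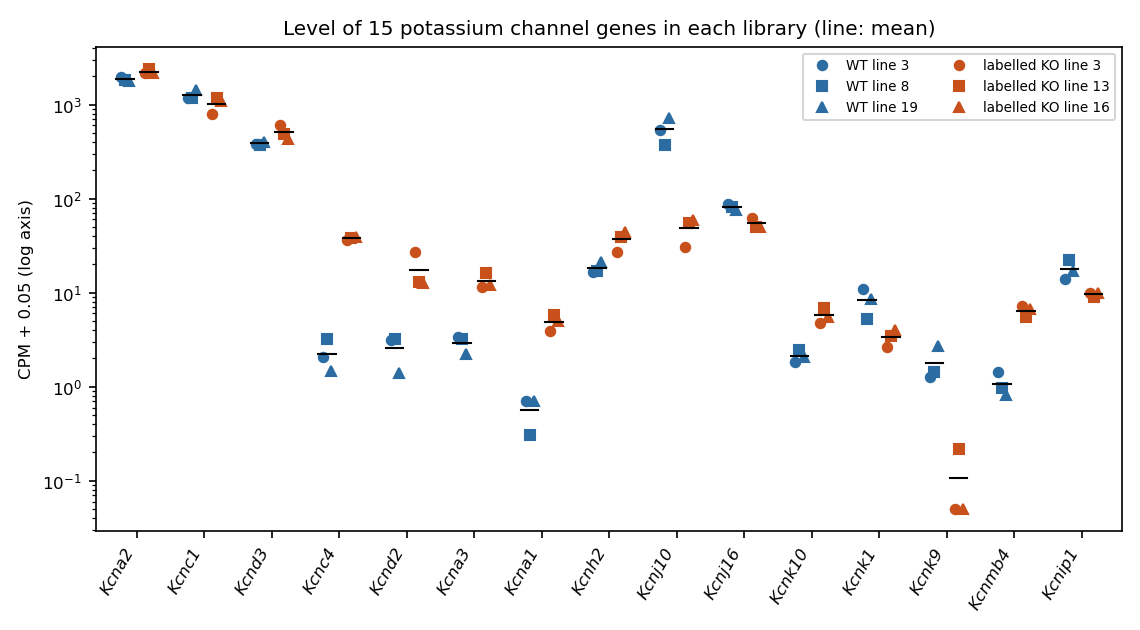
Level of 15 members in each library (vertical, log axis, CPM with 0.05 added; symbols, lines; horizontal bars, means of 3), for libraries labelled WT and labelled KO. Kcnc4 and Kcna1 in KO lie wholly above WT, Kcnj10 and Kcnk9 wholly below it, and Kcnc1 overlaps.

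None of the 9 tested inward rectifiers was higher in the libraries labelled KO, and 4 were lower, with a median log2 fold change of -0.58. The share called lower was 44.4%, against 20.4% of all tested genes. The share called in either direction, also 44.4%, was near the 42.3% of all tested genes, and both shares rest on 9 genes. Kcnj10 (ENSMUSG00000044708.5, chromosome 1, 172341210 to 172374085), the Kir4.1 channel through which astrocytes and oligodendrocytes take up potassium, was at 543, 370 and 724 CPM in WT and 30.6, 55.6 and 58.7 CPM in KO. The lowest WT library was more than 6 times the highest library labelled KO, and the means were 546 ± 177 and 48.3 ± 15.4 CPM (SD, n = 3 each). Its log2 fold change was -3.50 (SE 0.31, edgeR adjusted p = 7.3e-05). Kcnj16, a partner subunit of Kcnj10 in glia, was at 86.9, 81.5 and 75.8 against 62.6, 50.3 and 50.4 CPM, a smaller difference of -0.58 (SE 0.12, adjusted p = 0.00541). Per kilobase of exon, the mean level of Kcnj10 was 101 CPM and that of Kcnj16 20.7 CPM in the libraries labelled WT, and 8.93 and 13.8 CPM in those labelled KO.

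The other inward rectifiers were low. Kcnj4, a strong rectifier of forebrain neurons, was at 2.63, 2.23 and 2.82 against 1.39, 1.18 and 1.42 CPM (-0.94, edgeR adjusted p = 0.00797). Kcnj15 had 41 counts over the WT libraries and 5 over those labelled KO (log2 fold change -2.98, SE 0.61). The ratio was 8.22 with a 95% counting interval of 3.25 to 26.6, which leaves out the spread between lines. Kcnj15 met the filter's minimum only in the libraries labelled WT, so it had to differ to be tested, and it is among the inward rectifiers counted as lower. Kcnj2, next to Kcnj16 on chromosome 11, and Kcnj9, next to Kcnj10 on chromosome 1, were not called, at log2 fold changes of -0.25 and 0.28. The neighbours of both lowered genes therefore differed from them in their call, which is not a test of the difference. Kcnj11, the pore of ATP-sensitive channels, was not called, and its receptor subunits Abcc8 and Abcc9 were too low to test.

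Markers of cell types moved in the same comparison. Of 8 astrocyte markers tested, 5 were lower in the libraries labelled KO (62.5%, against 20.4% of all tested genes) and none was higher. The summed level of the astrocyte list was 493 to 830 CPM in WT against 182 to 230 CPM in KO. Among them Cd44 was at 190 to 248 against 32.3 to 33.3 CPM, while Aqp4 and S100b were under 2 CPM in every library. Of 7 oligodendrocyte lineage markers tested, 4 were higher (57.1%, against 21.8% of all tested genes). Their sum was 685 to 767 CPM in WT and 1110 to 1310 CPM in KO. Pdgfra was at 1.11 to 3.58 against 37.8 to 40.6 CPM, while the myelin gene Mbp stayed under 1 CPM. Of 5 tested neuronal markers, Dcx and Snap25 were higher (40.0%, against 21.8% of all tested genes). The sum over the list was 14.2 to 21.3 CPM in WT and 31.6 to 55.3 CPM in KO, and Stmn2 stayed under 1 CPM. Of 6 tested radial glia and precursor markers, Vim was lower (log2 fold change -0.48, edgeR adjusted p = 0.0305) and the other 5 were not called. The share called was 16.7%, against 42.3% of all tested genes. The sum of these markers was 6320 to 6920 CPM in WT and 4630 to 5910 CPM in KO. Of 4 mesenchymal markers, Col1a1 was the 1 tested and was higher, at 0.951 to 1.63 against 3.26 to 4.12 CPM, while Col1a2, Dcn and Lum were under 1 CPM in every library. Their part in the channel results was not tested, and in whole cultures fewer cells of a type and less RNA per cell cannot be told apart.

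Of 7 tested two-pore channels, which carry background current, 2 were higher and 3 were lower (71.4% called, against 42.3% of all tested genes). Kcnk10 (TREK-2) was higher, at 1.76, 2.38 and 2.01 CPM in WT and 4.76, 6.85 and 5.45 CPM in KO, or 1.48 on the log2 scale (SE 0.21, edgeR adjusted p = 0.000845), while its close relative Kcnk2 (TREK-1) was not called, at 9.40, 11.2 and 12.3 against 8.07, 10.6 and 13 CPM. Kcnk5, an acid-sensitive channel, was higher by 0.78 on the log2 scale, at 4.68, 3.95 and 3.52 against 6.04, 7.02 and 7.85 CPM. The other 3 called members were lower. Kcnk9, also acid-sensitive, was at 1.21, 1.37 and 2.66 against 0, 0.169 and 0 CPM (log2 fold change -4.70, SE 0.74). The counts were 109 and 4, a ratio of 27.3 with a 95% counting interval of 10.4 to 102, which leaves out the spread between lines. Kcnk9 met the filter's minimum only in the libraries labelled WT, so it had to differ to be tested, and its call counts toward the 71.4%. Kcnk1 was at 11, 5.17 and 8.57 against 2.57, 3.43 and 3.91 CPM (-1.32, edgeR adjusted p = 0.00595), and its exons overlap the antisense transcript Gm45875. Kcnk4 was at 3.66, 4.46 and 4.01 against 1.71, 2.20 and 2.15 CPM (-0.99). Its exons share 587 of their 4465 bases with Catsperz, a gene on the same strand, which may affect its count.

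Among the calcium-activated channels and their relatives, 2 of 8 tested members passed the threshold (25.0%, against 42.3% of all tested genes), with a median log2 fold change of -0.28. Kcnma1, the pore of the large-conductance BK channel, was at 36.6, 42.2 and 38.2 CPM in WT and 34.3, 29.8 and 29.0 CPM in KO, or -0.33 on the log2 scale (SE 0.11, edgeR adjusted p = 0.0442) only just past the threshold. That call was lost without any 1 of WT lines 3, 8 and 19 and KO lines 13 and 16, with log2 fold changes of -0.39 to -0.27 and adjusted p of 0.0726 to 0.152. Kcnn4, an intermediate-conductance channel, was higher from a low level, at 0.293, 0.253 and 0.163 against 0.909, 0.507 and 0.987 CPM (1.69), or 16 and 52 counts. It met the filter's minimum only in the libraries labelled KO, so it had to differ to be tested. Kcnn3, the most abundant of the class per length, was at 72.1, 53.5 and 65.3 against 40.1, 60.1 and 49.4 CPM, overlapping groups that were not called (-0.35). Kcnt1, a sodium-activated channel whose protein binds FMRP, was at 14.2, 14.7 and 13.6 against 19.6, 15.4 and 12.7 CPM and was not called (0.16, adjusted p = 0.462). Its highest value was that of KO line 3.

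Of 9 tested auxiliary subunits, 4 were higher (44.4%, against 21.8% of all tested genes) and 1 was lower (11.1%, against 20.4%). Kcnmb4 (ENSMUSG00000054934.10, chromosome 10, 116417861 to 116473878), the neuronal beta subunit of BK channels through which FMRP is known to act on them, was at 1.39, 0.912 and 0.759 CPM in WT and 7.16, 5.41 and 6.57 CPM in KO. The groups were far apart, and the log2 fold change was 2.60 (SE 0.25, edgeR adjusted p = 0.000114). Its exons overlap the antisense transcripts Kcnmb4os1 and Kcnmb4os2, whose reads cannot be told apart from its own in the shared bases. Lrrc55, a gamma subunit of the same channel, was at 6.22, 2.58 and 8.03 against 0.267, 0.338 and 0.215 CPM (log2 fold change -4.33, SE 0.49). The counts were 369 and 18, a ratio of 20.5 with a 95% counting interval of 12.8 to 35.0, which leaves out the spread between lines. Lrrc55 met the filter's minimum only in the libraries labelled WT, so it had to differ to be tested.

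Cytoplasmic beta subunits of the Kcna channels were higher for a pair of genes. Kcnab2 was at 4.72, 7.65 and 4.5 against 13.4, 10.7 and 12.6 CPM (1.12, edgeR adjusted p = 0.0036), Kcnab3 at 6.77, 8.31 and 10.3 against 15.3, 15.8 and 17.4 CPM (0.94, adjusted p = 0.00244), and Kcnab1 was not called (-0.03). The KChIP proteins, encoded by Kcnip1 to Kcnip4, bind the Kv4 channels. Kcnip1 was lower, at 13.8, 22.4 and 17.1 against 9.89, 8.97 and 9.74 CPM (-0.90, adjusted p = 0.00454), and Kcnip3, the most abundant of them, was not called, at 42.5, 31.5 and 38.3 against 24.3, 40.6 and 43.8 CPM. Kcnip4 was at 5.27, 8.16 and 6.62 against 9.89, 4.65 and 3.52 CPM and was called only without KO line 3 or without both that line and WT line 19 (-0.70 in each case). Dpp6 and Dpp10, the other known partners of Kv4 channels, were also tested. Dpp6 was higher, at 1.13, 1.82 and 2.01 against 9.14, 8.92 and 7.51 CPM (2.39, adjusted p = 0.000112). Dpp10 was at 0.183, 0.0507 and 0.0542 against 1.98, 0.55 and 0.944 CPM (log2 fold change 3.35, SE 0.68). The counts were 7 and 72, a ratio of 10.3 with a 95% counting interval of 4.74 to 26.4, which leaves out the spread between lines. Dpp10 met the filter's minimum only in the libraries labelled KO, so it too had to differ to be tested. Kcne2 was at 0.366, 0.811 and 0.596 against 0.855, 1.27 and 1.54 CPM (1.09, adjusted p = 0.0393), a call lost without WT line 3, WT line 19, KO line 13 or KO line 16 (0.80 to 1.12, adjusted p 0.0863 to 0.159).

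**Figure D4:**
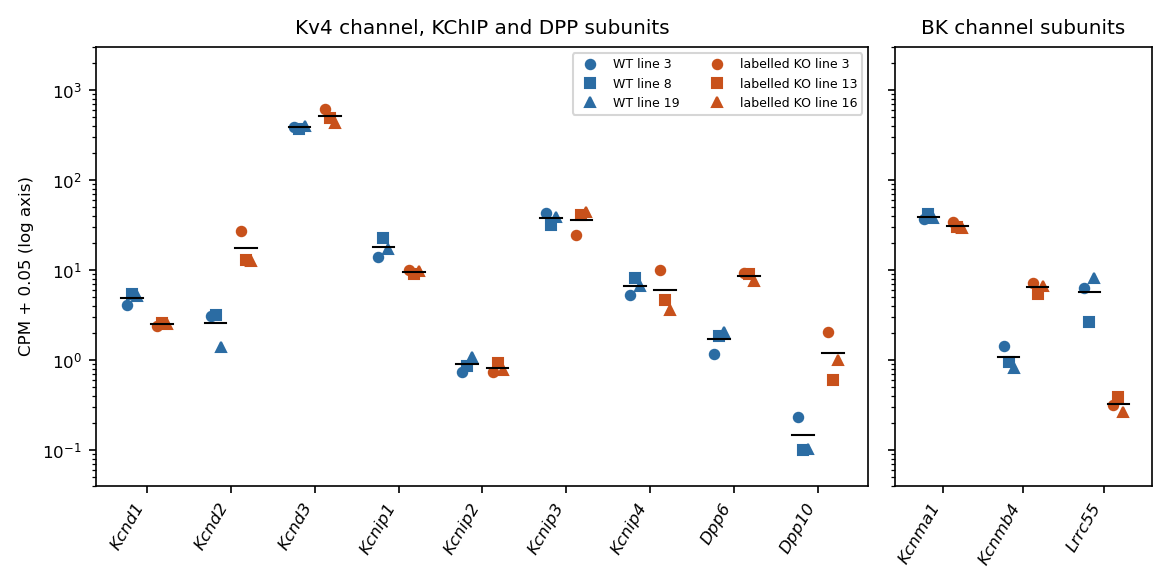
Level in each library (vertical, log axis, CPM with 0.05 added; symbols, lines; horizontal bars, means of 3) of subunits of the Kv4 channel complex (left) and of the BK channel (right). Kcnd2, Dpp6, Dpp10 and Kcnmb4 lie higher in the libraries labelled KO, Kcnd1, Kcnip1, Kcnma1 and Lrrc55 lower.

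A group of 6 members has been tied to FMRP by their mRNA, protein or subunits: Kcnd2, Kcnmb4, Kcnma1, Kcnt1, Kcnc1 and Kcna2. Kcnd2 and Kcnmb4 were higher, Kcnma1 was lower with a call lost in 7 of 17 alternative settings, and the other 3 were not called. The median log2 fold change was 0.22. The 50.0% called lies near the 42.3% of all tested genes. Binding of these RNAs was not measured here.

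Other genes that handle potassium were also examined, from a list of 56 in which 55 had a row. Of 37 tested, 7 were higher in the libraries labelled KO and 15 were lower, 59.5% in all against 42.3% of all tested genes, with a median log2 fold change of 0.02. Genes for chloride and potassium cotransport and the kinases that govern it held the smallest p-values. Wnk4 was at 15.5, 16.1 and 22.0 against 2.35, 2.88 and 3.18 CPM (-2.66, edgeR adjusted p = 3.4e-05), while Wnk2, of the same kinase family, was at 19.8, 16.4 and 20.7 against 43.7, 66.1 and 59.6 CPM (1.57). Stk39, the SPAK kinase that WNK kinases activate, was at 10.3, 8.21 and 8.62 against 39.9, 29.8 and 35.8 CPM (1.95, adjusted p = 4.32e-05). Slc12a5, which encodes the chloride extruder KCC2, was at 67.5, 54.9 and 63.4 against 21.5, 23.6 and 21.7 CPM (-1.48, adjusted p = 4.4e-05), and its relative Slc12a4 was lower as well (-0.43), with a call lost without WT line 3 or WT line 19 (-0.46 and -0.37).

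Genes of the smaller subunits of the sodium-potassium pump differed. All 3 tested beta subunit genes were lower, led by Atp1b1 at 100, 71.2 and 80.9 against 30.2, 32.8 and 32.3 CPM (-1.41, edgeR adjusted p = 0.000126), followed by Atp1b2 (-0.86) and Atp1b3 (-0.37), whose call was lost without WT line 3 or KO line 13 (-0.37 and -0.33). Fxyd6, a small regulator of the pump, was higher by 2.06 on the log2 scale. The potassium channels of the endoplasmic reticulum Tmem38a and Tmem38b and that of the lysosome Tmem175 were lower, with log2 fold changes of -0.57, -0.71 and -0.42. The call of Tmem38b was lost without WT line 8 or KO line 13 (-0.61 and -0.65), and that of Tmem175 without WT line 3 (-0.39).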

How the data were processed

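Each library's file holds whole, unnormalized counts by gene symbol (23337 rows), as the authors deposited them. The submitters' processing notes name mm10, STAR, cutadapt 1.14, HTSeq 0.7.2 and DESeq2; annotation and strand setting: not given in the sources used here. Symbols were matched to GENCODE mouse release 21 (20953 directly, 1920 through a synonym) for positions and exon lengths, and to RefSeq promoter windows. From the counts, CPM on the scale of trimmed-mean (TMM) factors and edgeR 4.0.16 quasi-likelihood tests (R 4.3.3, filterByExpr, robust dispersion, 6 libraries, 4 residual degrees of freedom before pooling of spread) were computed over 13925 genes, two-sided, with Benjamini-Hochberg adjustment at 0.05. The SE comes from the F statistic. The statistics were tested on simulated data, where 19.4% of 1.5-fold, 65.7% of 2-fold and 94.1% of 4-fold changes were called. Of the calls there, 6.87% were false. Far fewer genes were changed in that simulation than were called in the data, so its rates may not carry over. A member not called may still differ by a small fold. Counting intervals are exact at 95%, after Clopper-Pearson, and cover counting error only.

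The members and the gene lists were chosen with earlier results of these data known. Values in every library were to be given for up to 6 called members per class by smallest p, the 2 highest per length in each class, members tied to FMRP, and up to 6 called genes of the other potassium list. Kcnh2, Kcnh8, Kcnd1, Kcnd3, Kcna4, Kcna6, Kcnc2, Kcnip4, Kcng3, Kcnj8, Kcnj12, Dpp10 and Lrrc55, and the other potassium genes given by fold change alone, were added after their values were seen. Some genes that met the rule are in the counts but are not reported here. Alternatives were other size factors, filters and tests (DESeq2 1.42.0, limma-voom 3.58.1), a threshold of 0.10, a covariate for Xist state (1000 CPM), and leaving out libraries.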

Additional observations from a re-analysis of the deposited data

How the results depend on the processing

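Under 17 alternatives the count of members called higher in the libraries labelled KO ran from 14 to 19 and that of members called lower from 9 to 13. For the other potassium genes the counts ran from 6 to 8 and from 12 to 16. Of the 29 called members, 24 kept their call in each setting that gave a value and 5 (Kcna4, Kcnc2, Kcnd3, Kcne2 and Kcnma1) lost it in at least 1, and none of the 488 values reversed. Besides the losses on leaving out 1 line, Kcna4 lost its call in the DESeq2 Wald test and with limma-voom. Kcna4 also lost it without both WT line 19 and KO line 3. Kcne2 lost its call in the DESeq2 Wald test and with the Xist covariate. Kcnma1 lost it without the filter on low counts and with the Xist covariate. The fitted fold of Kcnk9, which rests on 4 counts in the libraries labelled KO, reached -8.21 on the log2 scale without KO line 13. Some uncalled members changed sign around zero. With voom sample weights the log2 fold change was 0.01 for Kcnab1, 0.08 for Kcnip2, 0.04 for Kcnip3, 0.07 for Kcnk2 and -0.01 for Kcnq5. Without both WT line 19 and KO line 3 it was 0.12 for Kcnip2, 0.19 for Kcnip3, -0.10 for Kcnj14, 0.20 for Kcnk2, -0.09 for Kcnq5 and -0.04 for Kcnt1. With the Xist covariate it was -0.05 for Kcnf1 and -0.08 for Kcnh8, and Kcnh8 was at 0.00 with DESeq2 size factors, upper-quartile factors or library totals and at -0.01 in the DESeq2 Wald test. Leaving out 1 library at a time gave -0.32 to 0.28 for Kcnab1, -0.30 to 0.63 for Kcnh8, -0.25 to 0.05 for Kcnip2, -0.19 to 0.18 for Kcnip3, -0.70 to 0.12 for Kcnip4, -0.04 to 0.21 for Kcnj14, -0.21 to 0.12 for Kcnk2, -0.03 to 0.18 for Kcnq5 and -0.01 to 0.31 for Kcnt1. The cause was not tested. Kcna2 was called with voom sample weights (0.29), and Kcnc1 (-0.45), Kcnj13 (-1.25) and Kcnn3 (-0.45) with the Xist covariate. Kcnv1 was called without both WT line 19 and KO line 3 (-0.57). No paired analysis was possible because the groups share only 1 line number. The 37 members at or under 0.76 CPM were not tested with all 6 libraries. Without the filter on low counts 2 of them were called, Kcng3 higher (1 and 14 counts in WT and KO) and Kcnj8 lower (9 and 0 counts). Kcnj12 was called lower without WT line 3 (-2.22) and Kcnq3 higher without KO line 3 (1.38).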
